A study of Mus musculus with 4 samples.

Results

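Chemokines of the CC family are small secreted proteins that draw leukocytes along a gradient, and their receptors are G protein-coupled receptors on the surface of those leukocytes. The genes examined were 7 ligands (Ccl2, Ccl3, Ccl4, Ccl6, Ccl9, Ccl17 and Ccl22) and 2 receptors (Ccr1 and Ccr2), taken as every non-control probe that carries one of these gene names. They made up 9 of 28497 genes and 10 of 41150 probes on the array, with 1 probe each except Ccr2, which had 2, and all 10 probes were well above background on all 4 arrays. The samples were 2 arrays of miR-223 KO and 2 of wild-type cells, all from male C57BL/6 mice. Marrow was grown for 4 days in GM-CSF at 40 ng/ml, and the immature granulocytes that expanded were sorted from it. Every sample had the same strain, sex, culture and sort. The labels give neither the construction of the knockout allele, nor the surface markers of the sort, nor whether replicates came from separate animals, so that p-values measure only the spread between these samples, which may be technical.

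In marrow, CC chemokines govern how myeloid cells leave the tissue and where they settle. Ccl2 acts on Ccr2 and releases monocytes into the blood. Ccl3 and Ccl4 are made by activated macrophages and granulocytes, and Ccl3 acts on Ccr1. Ccl6 and Ccl9 are myeloid ligands of Ccr1 that exist in mice, and Ccl6 is known as a gene that GM-CSF induces in marrow cells. Ccl17 and Ccl22 act on Ccr4 and are products of dendritic cells and macrophages. MiR-223 is a microRNA of the myeloid lineage that lowers messages carrying a match to its seed.

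Levels are log2 intensities relative to the 75th percentile of each array. A difference is the mean level in knockout minus that in wild type. Errors of differences are moderated standard errors (SE) from limma with n = 2 arrays per genotype. That percentile was 515 and 494 intensity units on the knockout arrays and 586 and 486 on the wild-type arrays. Between 57.6% and 63.6% of probes were well above background, and 0 spots of the 10 CC probes were saturated or marked as outliers. Of 16779 tested genes, 0 passed an adjusted p of 0.05 (limma), while 2267 had an unadjusted p under 0.05. No probe was named for Mir223, so that the deleted gene itself was not checked. Neutrophil granule genes were listed as markers of the sorted cells. Of 20 listed genes 17 were on the array and tested, and the 3 others, Azu1, Cebpe and Ly6g, had no probe named for them. The summed log2 level of the 17 was 12.3 and 12.4 on the knockout arrays and 12.1 and 12.2 on the wild-type arrays. This sum is set by the brightest genes and does not by itself identify the cells.

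The mature sequences of the deleted microRNA are shown because the loss of this molecule is the difference between the genotypes. RefSeq places them on chromosome X (GRCm38.p6, plus strand), and the capitals mark the seed, bases 2 to 8.
miR-223-3p: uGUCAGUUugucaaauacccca
miR-223-5p: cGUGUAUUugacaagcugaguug
The 7 bases that pair with the seed of miR-223-3p read AACTGAC in a message. They were found in 153 of 41150 probes (0.372%), searched on the strand of the transcript, and among the 10 probes of the CC genes in that of Ccl3 alone. There the match was extended by a final A to AACTGACA, a form held by 56 probes (0.136%). The stretch of the Ccl3 probe that holds it lies on chr11:83461388-83461417 (mm9, minus strand), with the match in capitals.
Ccl3 probe, 30 bases: catgAACTGACAaatgtacaatagatgctt
The match to the seed of miR-223-5p, AATACAC, was in 144 probes (0.35%) and in 0 of the 10. A probe covers only 60 bases of its message, and the rest of each message was not searched.

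Taken as a set, 7 of the 9 genes had lower means in knockout cells and 2 had higher means, with a median difference of -0.21 against 0.03 over all tested genes. No gene of the set passed an adjusted p of 0.05 over all genes (limma), where 0% of all genes were called in either direction. The smallest adjusted p was 0.251, that of Ccr2. At an unadjusted p under 0.05, 3 genes were lower (Ccl2, Ccl4 and Ccr2) and 1 was higher (Ccl22), against 5.55% and 7.96% of all tested genes. The genotypes did not overlap for 5 of the 9 genes, against 48% of all tested genes. Knockout was the lower one for Ccl2, Ccl4, Ccl9 and Ccr2 (4 of 9, against 20.2% of all tested genes) and the higher one for Ccl22 (27.8% of all tested genes). Without wild-type replicate 2, 4 of the 9 genes had lower means in place of 7, and without knockout replicate 1 it was 5. The 4 genes left, Ccl3, Ccl6, Ccl17 and Ccr1, had overlapping groups. With 2 arrays against 2, an exact permutation test of a single gene cannot give a p below 0.333.

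**Figure D1:**
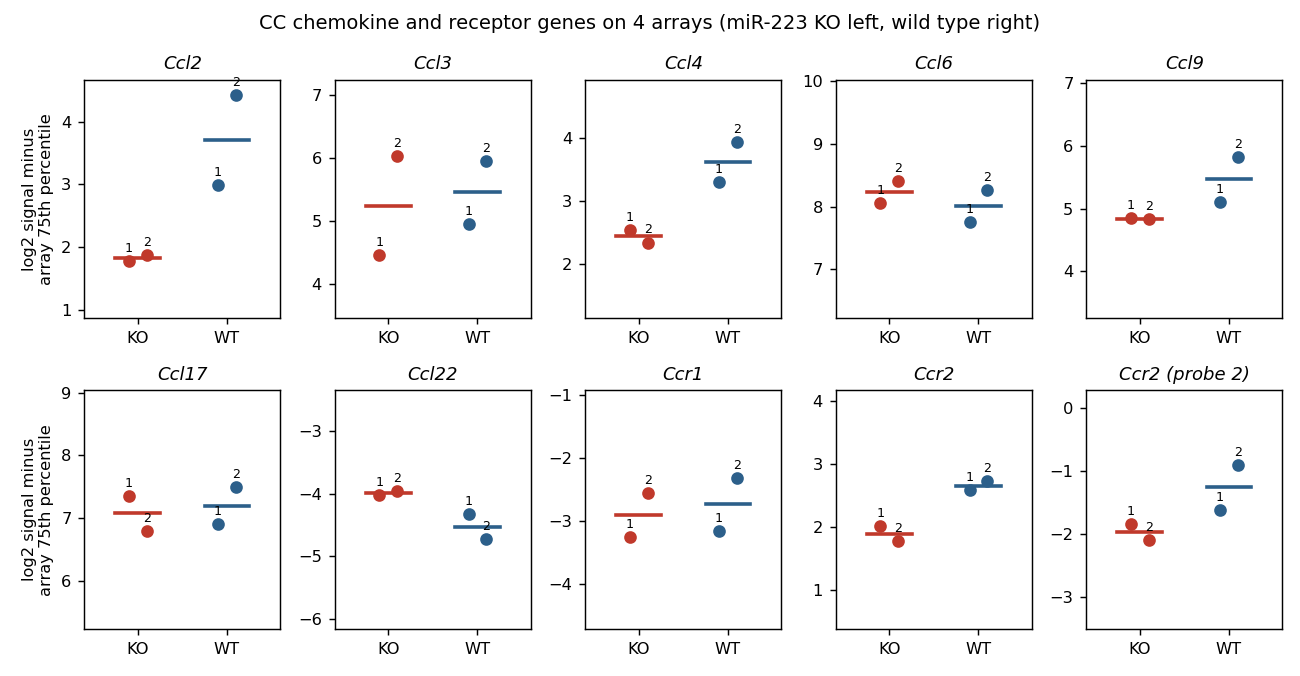
Log2 level above or below the 75th percentile of the array (y axis) for the 9 genes, with miR-223 KO arrays in red on the left and wild-type arrays in blue on the right; points are arrays with their replicate number, lines are means, and every panel spans the same log2 range. The knockout points lie below the wild-type points for Ccl2, Ccl4, Ccl9 and both Ccr2 probes, above them for Ccl22, and among them for Ccl3, Ccl6, Ccl17 and Ccr1.

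Ccl2, the main ligand of Ccr2, had the largest difference of the 9 genes. Its level was 1.78 and 1.88 in knockout cells, against 2.99 and 4.43 in wild-type cells. The knockout arrays lay close together and below both wild-type arrays, which were themselves far apart. The difference was -1.88 ± 0.50 (SE; 3.68-fold lower in knockout; 95% confidence interval -3.22 to -0.54; limma adjusted p = 0.295). The probe lies on chromosome 11 (81850650 to 81850709, mm9, plus strand) and was spotted 10 times on each array, which shows the technical spread within an array. The spots ran from intensities of 1686 to 1928 and 1547 to 2068 on the knockout arrays, and from 3753 to 5398 and 9581 to 11548 on the wild-type arrays. Spots of the knockout arrays did not overlap with those of either wild-type array, nor did the spots of the wild-type arrays overlap with each other. The SD over spots was 0.06 and 0.11 in knockout and 0.16 and 0.09 in wild type on the log2 scale, against 1.02 between the wild-type arrays. Without wild-type replicate 2 the difference was -1.16, and without wild-type replicate 1 it was -2.60.

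Ccl4 showed the second largest difference, and Ccl3, which lies beside it in the genome, had overlapping groups. Ccl4 was at 2.54 and 2.34 in knockout cells, against 3.30 and 3.95 in wild-type cells, groups that did not overlap. The difference was -1.19 ± 0.26 (SE; 2.27-fold lower; 95% interval -1.87 to -0.50; limma adjusted p = 0.262). Ccl3 was at 4.46 and 6.03 in knockout cells, against 4.95 and 5.95 in wild-type cells. The knockout arrays were the lowest and the highest of the 4, with both wild-type arrays between them. The difference was -0.21 ± 0.64 (SE; 95% interval -1.92 to 1.50; limma adjusted p = 0.91). It turned to 0.29 without wild-type replicate 2 and to 0.58 without knockout replicate 1. For Ccl3, whose probe carries the seed match shown above, the 4 arrays thus gave no stable direction. Whether Ccl3 and Ccl4 differ in their response was not tested. The probe of Ccl3 lies on chromosome 11 at 83461358 to 83461417 (minus strand) and that of Ccl4 at 83478052 to 83478111 (plus strand, mm9).

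Ccl9 and Ccl6, neighbouring genes for ligands of Ccr1, had differences of opposite sign, with the genotypes apart for Ccl9 and overlapping for Ccl6, whose sign was not stable. Ccl9 was at 4.85 and 4.84 in knockout cells, against 5.11 and 5.83 in wild-type cells, with no overlap. The difference was -0.63 ± 0.27 (SE; 1.54-fold lower; 95% interval -1.35 to 0.10; limma adjusted p = 0.414), and it was -0.27 without wild-type replicate 2. Ccl6 was at 8.06 and 8.40 in knockout cells, against 7.75 and 8.27 in wild-type cells, and the groups overlapped. Its difference was 0.22 ± 0.24 (SE; 95% interval -0.42 to 0.86; limma adjusted p = 0.717), and it was -0.037 without wild-type replicate 1. Intensities of the Ccl6 probe were 137600 and 166870 in knockout and 126380 and 149840 in wild type. The probes lie on chromosome 11 (mm9, minus strand), that of Ccl9 at 83388223 to 83388282 and that of Ccl6 at 83401997 to 83402056. Among 428 pairs of a probe of the 9 genes with a CC family probe of another gene, no pair shared a run of more than 10 of 60 bases.

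The sequences upstream of Ccl9 and Ccl6 are shown because these are adjacent genes of the family of which Ccl9 had the genotypes apart and Ccl6 did not. They are the 250 bases before the RefSeq start of each gene (GRCm38.p6, chromosome 11, minus strand), chr11:83578637-83578886 for Ccl9 and chr11:83593088-83593337 for Ccl6. Capitals mark matches to 5 motifs, searched on both strands of the RefSeq promoter window, which runs from 250 bases before to 50 after the start.
Ccl9: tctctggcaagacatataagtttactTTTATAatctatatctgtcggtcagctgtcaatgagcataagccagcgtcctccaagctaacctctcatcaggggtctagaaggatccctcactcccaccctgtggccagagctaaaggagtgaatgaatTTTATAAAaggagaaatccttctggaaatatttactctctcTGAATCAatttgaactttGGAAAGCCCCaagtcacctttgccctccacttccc
Ccl6: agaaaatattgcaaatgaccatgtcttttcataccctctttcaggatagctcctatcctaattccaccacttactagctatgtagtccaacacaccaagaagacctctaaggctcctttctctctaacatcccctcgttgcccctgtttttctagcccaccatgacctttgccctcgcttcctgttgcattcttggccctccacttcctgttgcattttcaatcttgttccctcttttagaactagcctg
Promoters were found in the table for 7 of the 9 genes, all except Ccl2 and Ccl4. Ccl9 held the NF-kB consensus at base -35 counted from the start, present in 4.51% of 32851 promoters of this length, the AP-1 motif TGANTCA at -53 (7.81%) and the TATA box TATAAA (13.6%). Its TATA matches at -94 and -92 overlapped, as the motif was read on both strands, and another stood at -224. Those at -94 and -224 read TTTATA, which is the motif on the other strand. The C/EBP motif TTNNGCAA (10.8% of promoters) was in none of the 7, and the PU.1 motif GAGGAA (28.3%) was in those of Ccl17, Ccl3 and Ccr1. The Ccl6 window held a match to 0 of the 5 motifs, as did those of Ccl22 and Ccr2. A match here describes the letters only, and no binding was measured. Any link between these motifs and the differences by genotype was not tested.

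Of the ligands of Ccr4, Ccl17 had overlapping genotypes and Ccl22 did not. Ccl17 was at 7.36 and 6.79 in knockout cells, against 6.90 and 7.49 in wild-type cells. The genotypes interleaved, with a difference of -0.12 ± 0.30 (SE; 95% interval -0.92 to 0.68; limma adjusted p = 0.885). The sign turned to 0.17 without wild-type replicate 2 and to 0.16 without knockout replicate 2. Ccl22 was the gene with both knockout arrays on top, at -4.02 and -3.95 in knockout cells, against -4.33 and -4.72 in wild-type cells. The difference was 0.54 ± 0.18 (SE; 1.45-fold; 95% interval 0.06 to 1.02; limma adjusted p = 0.339). The probe was dim, with intensities of 31.8 and 31.9 in knockout and 29.2 and 18.4 in wild type. With normexp background correction the difference was 0.12. That setting adds an offset of 50 intensity units, which by itself shrinks the log2 differences of dim probes. Both probes lie on the plus strand of chromosome 8 (mm9), that of Ccl17 at 97335770 to 97335829 and that of Ccl22 at 97274709 to 97274768.

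Of the 2 receptors, Ccr2 was lower in knockout by both of its probes, and Ccr1 did not separate by genotype. The brighter Ccr2 probe was at 2.01 and 1.78 in knockout cells, against 2.59 and 2.73 in wild-type cells. The arrays of each genotype lay close together and apart from the other genotype. The difference was -0.77 ± 0.15 (SE; 1.70-fold lower; 95% interval -1.17 to -0.37; limma adjusted p = 0.251), and it kept between -0.88 and -0.65 under 12 other settings. The second Ccr2 probe was at -1.85 and -2.10 in knockout cells, against -1.61 and -0.90 in wild-type cells. Its difference of -0.72 ± 0.28 (SE; 1.65-fold lower; limma adjusted p over probes 0.393) was -0.46 with normexp and -0.36 without wild-type replicate 2. The probes lie on chromosome 9 (mm9, plus strand) at 124022948 to 124023007 and at 124023519 to 124023578. Both Ccr2 probes had the genotypes apart, as had 19.5% of 25057 tested probes with knockout lower, and limma called 0% of probes as higher and 0.012% as lower at an adjusted p of 0.05. Ccr1, the receptor for Ccl3, Ccl6 and Ccl9, was at -3.26 and -2.56 in knockout cells, against -3.16 and -2.32 in wild-type cells. The groups overlapped, with a difference of -0.17 ± 0.39 (SE; 95% interval -1.21 to 0.87; limma adjusted p = 0.876). Its probe lies on chromosome 9 at 123877790 to 123877849 (mm9, minus strand), and the sign turned without wild-type replicate 2 (0.25) and without knockout replicate 1 (0.18).

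The rest of the CC family, listed from the known mouse genes, was represented by 15 further ligands and 12 further receptors. Of the ligands, 13 were on the array and 7 were tested, 4 with lower and 3 with higher means in knockout. Their median difference was -0.51, and 0 passed an adjusted p of 0.05 (limma). At an unadjusted p under 0.05, 3 were lower and 0 higher, against 5.55% and 7.96% of all tested genes. The probes used for Ccl1, Ccl8, Ccl11, Ccl20, Ccl21a and Ccl28 failed the background test on all 4 arrays. Of the receptors, 12 were on the array and 6 were tested, 3 lower and 3 higher, with a median of -0.086 (0.15 without wild-type replicate 2), and 0 passed (limma; 1 lower at an unadjusted p under 0.05). Ccr4, the receptor of Ccl17 and Ccl22, failed it on all 4 arrays, as did Ccr8, Ccr1l1, Ackr1, Ackr2 and Ackr4.

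The other measured ligands of Ccr2 had values on the same side as Ccl2. Ccl7, encoded next to Ccl2, was at -3.55 and -3.60 in knockout cells, against -2.01 and -0.74 in wild-type cells. This is a difference of -2.20 ± 0.44 (SE; limma adjusted p = 0.251), and a second probe gave -2.21. It was -1.57 without wild-type replicate 2 and -1.28 with normexp background correction. Ccl12 was at -4.12 and -4.82 in knockout cells, against -2.98 and -3.08 in wild-type cells, a difference of -1.44 ± 0.27 (SE; limma adjusted p = 0.251) that was -0.57 with normexp. Thus Ccr2 and the 3 of its ligands that were tested, Ccl2, Ccl7 and Ccl12, each had the genotypes apart with knockout lower, as had 20.2% of all tested genes. This grouping was made after the values were seen. Ccl7 and Ccl12 are dim on these arrays, with intensities of 17.5 to 44.0 in knockout and 57.5 to 290.4 in wild type. The offset of normexp therefore shrinks their differences by itself.

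Ccr9, a homing receptor for the gut, was at -2.76 and -3.30 in knockout cells, against -1.63 and -1.43 in wild-type cells, a difference of -1.50 ± 0.23 (SE; limma adjusted p = 0.24) that was -0.99 with normexp. Its ligand Ccl25 had a difference of 0.24 ± 0.14. Ccl24, an attractant of eosinophils through Ccr3, had a difference of -1.36 ± 0.18 (limma adjusted p = 0.24), and -0.34 with normexp background correction. Its probe was dim, with intensities of 12.1 and 10 in knockout and 28.8 and 30.8 in wild type. A second Ccl24 probe was well above background on 1 wild-type array alone. Ccr3 itself, well above background on both knockout arrays and 1 wild-type array, had a difference of 0.02 ± 0.13. Its second probe failed the background test on all 4 arrays. Ccr7, which guides dendritic cells to lymph nodes, had a difference of 0.72 ± 0.43 and its ligand Ccl19 one of 0.25 ± 0.13. Ccr7 was at 0.11 without wild-type replicate 2 and 0.34 with normexp, and Ccl19 at 0.051 with normexp. A second Ccl19 probe failed the background test on all 4 arrays. Ccl5, a ligand of Ccr1, had a difference of 0.60 ± 0.29 (0.59 by a second probe) that was 0.20 without wild-type replicate 2. Ccl27a had a difference of -0.51 ± 0.19, Ccr6 one of 0.31 ± 0.25 (-0.023 with normexp), Ccr10 one of -0.19 ± 0.33 and the atypical receptor Ccrl2 one of -0.58 ± 0.65 (-0.61 by a second probe).

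**Figure D2:**
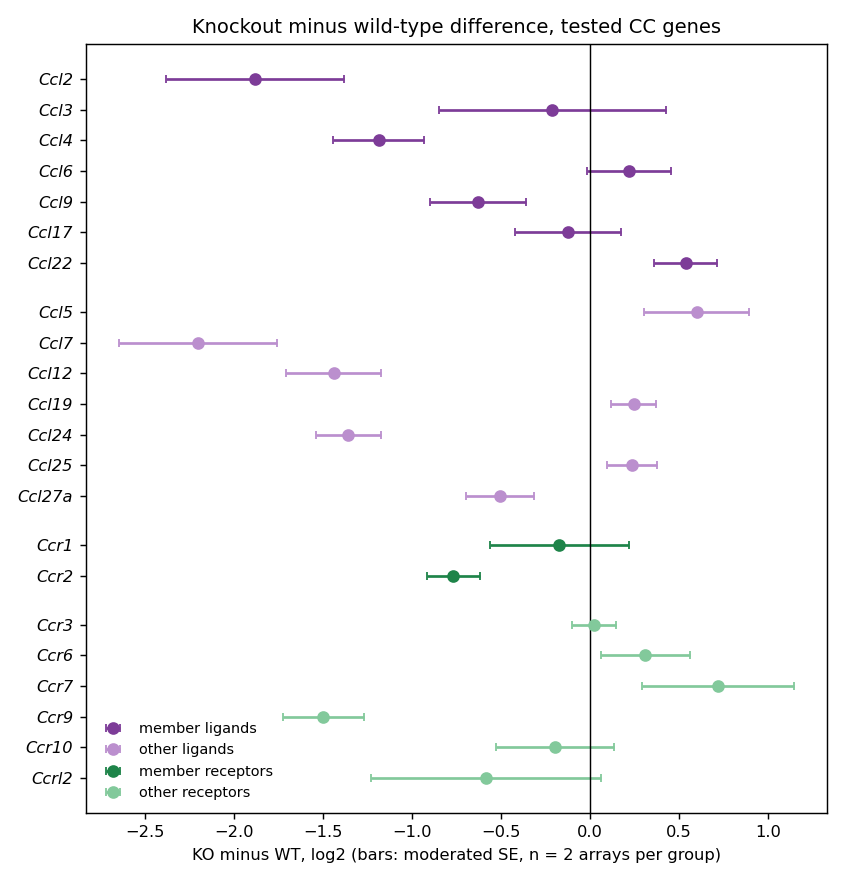
Knockout minus wild-type difference (x axis, log2; bars are moderated SE from limma, n = 2 arrays per group) for the 9 genes (dark) and the 13 other CC ligands and receptors that were tested (light). Ccl2, Ccl4, Ccl7, Ccl12 and Ccl24 among ligands and Ccr2 and Ccr9 among receptors lie furthest below 0, and no gene passed an adjusted p of 0.05.

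The G proteins, kinases and regulators that carry the signal of these receptors had a list median near 0, with Rgs1 far below it. All 29 listed genes were tested, 18 higher and 11 lower in knockout, with a median of 0.09, and 0 passed an adjusted p of 0.05 (limma; 0 also at an unadjusted p under 0.05). Rgs1, which shortens chemokine receptor signals, was at 0.66 and 1.45 in knockout cells, against 1.96 and 4.76 in wild-type cells, a difference of -2.31 ± 0.99 (SE; adjusted p = 0.411) that was -0.91 without wild-type replicate 2 and -3.71 without wild-type replicate 1. The G protein subunit genes Gng2 and Gng5 had differences of 0.37 ± 0.16 and 0.23 ± 0.12, and the kinase adaptor gene Pik3r6 one of 0.28 ± 0.14.

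The list of regulators of chemokine genes, which held NF-kB, AP-1 and interferon regulatory factors, had lower means more often than higher ones. This did not hold for its NF-kB subunit genes, named after their values were seen. Nfkb2 was at 0.17, Rela at 0.12, Relb at 0.18 and Nfkb1 at -0.01, and Rel was not tested. Of 28 listed genes 27 were tested, 17 lower and 10 higher in knockout, with a median of -0.10, and 0 passed (limma; 1 lower at an unadjusted p under 0.05). That gene was Irf8, a transcription factor of the monocyte and dendritic cell lineages, at 0.98 and 0.36 in knockout cells, against 1.86 and 1.71 in wild-type cells (-1.11 ± 0.25, SE; adjusted p = 0.262). Irf4, a factor linked to Ccl17 and Ccl22 expression, had a difference of -0.29 ± 0.14. The stress-induced factor genes Atf3 and Jun had differences of -1.64 ± 0.67 and -1.40 ± 0.59, and that of Atf3 was -0.66 without wild-type replicate 2 and -2.61 without wild-type replicate 1, that of Jun -0.65 without knockout replicate 1 and -2.15 without knockout replicate 2. The median of the regulator list turned to 0.05 without wild-type replicate 2.

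Markers of macrophages, of dendritic cells and of mast cells and basophils also had lower medians in knockout, as Ccl2, Ccl4, Ccl9 and Ccr2 had lower means. The part of these cells in the results was not tested. In sorted bulk cells, fewer cells of a type and less RNA per cell cannot be told apart. Of 26 macrophage and monocyte markers, 25 were tested, 19 lower and 6 higher in knockout. The genotypes were apart with knockout lower for 15 of them and with knockout higher for 5 (20.2% and 27.8% of all tested genes), and the median difference was -0.95. Mertk, a receptor for dying cells, had a difference of -2.04 ± 0.21 and the matrix gene Fn1 one of -1.91 ± 0.27, with Mrc1 at -1.17 ± 0.20 and Vcan at -0.95 ± 0.13. With normexp, Mertk was at -0.82 and Vcan at -0.46. The 4 markers higher at an unadjusted p under 0.05, named after their values were seen, were Ctsl (0.85 ± 0.26), Adgre1, which encodes F4/80 (0.75 ± 0.24), and the monocyte genes Ly6c1 (0.47 ± 0.13) and Ly6c2 (0.40 ± 0.12). The genotypes overlapped for Csf1r (-0.17 ± 0.20), Cd68 (-0.09 ± 0.24), Cd14 (-0.19 ± 0.33), Cx3cr1 (-0.18 ± 0.26) and Lyz2 (0.08 ± 0.18), also named afterwards. The list's median against the wild-type mean was -0.61 on knockout array 1 and -0.91 on knockout array 2. The summed log2 level of its genes, set by the brightest of them, was 10.48 and 10.6 in knockout and 10.2 and 10.4 in wild type. Timd4, a marker of resident macrophages, was the one left untested as too dim. None of the 26 passed an adjusted p of 0.05 (limma; 10 lower and 4 higher at an unadjusted p under 0.05, against 5.55% and 7.96% of all tested genes, shares that also stand against the lists that follow). The list's median was -0.49 with normexp, -0.56 without wild-type replicate 1 and -0.61 without knockout replicate 2.

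Dendritic cell and MHC class II markers had a median of -0.41 over 18 tested of 19, 14 lower and 4 higher, with Cd86 at -0.78 ± 0.14, Flt3 at -0.997 ± 0.29, Siglech at -1.75 ± 0.53 and Cd83 at -0.68 ± 0.22 (0 passed in limma; 6 at an unadjusted p under 0.05, all lower). With normexp, Flt3 was at -0.32 and Siglech at -0.56. Siglech was well above background on both wild-type arrays but on only 1 knockout array, so that the size of its difference is uncertain. Cd83 was at -0.43 without wild-type replicate 2, Flt3 at -0.62 without wild-type replicate 1 and Siglech at -1.16 without knockout replicate 2. The list's median was -0.25 without knockout replicate 2 and -0.61 without knockout replicate 1. The summed level of the list was 7.78 and 7.25 in knockout and 7.74 and 7.90 in wild type. Its MHC class II genes H2-Aa (-0.22), H2-Ab1 (-0.08) and H2-Eb1 (0.02) had overlapping genotypes, as had Ciita (-0.25). H2-DMa (-0.62), H2-DMb1 (-0.42) and Cd74 (-0.34) had them apart with knockout lower. The higher genes were H2-Eb1, Cd80 (0.05), Xcr1 (0.21) and Fscn1 (0.70, well above background on 1 wild-type array). These genes were named after their values were seen. Mast cell and basophil markers had a median of -1.47 over 11 tested of 15, 10 lower and 1 higher, with a summed level of 5.53 and 4.61 in knockout and 6.02 and 6.19 in wild type. The mast cell protease genes Cma1, Mcpt4, Tpsab1 and Tpsb2 were too dim to be tested. Kit, the 1 higher gene, was at 0.03 ± 0.21 with overlapping genotypes. Mcpt8 had levels of 3.04 and 1.34 in knockout cells, against 3.48 and 3.59 in wild-type cells. Prss34 had levels of 4.18 and 2.24, against 4.75 and 4.82. These 3 were named after their values were seen. As differences, the cytokine genes Il6 and Il4 of the list were at -2.09 ± 0.48 and -1.47 ± 0.46, and Il6 is not particular to these cells. Gata2 was at -1.92 ± 0.62 and Cpa3 at -1.63 ± 0.63 (0 of the list passed in limma, with 3 lower at an unadjusted p under 0.05). Without knockout replicate 2, Il4 was at -0.81, Gata2 at -1.02 and Cpa3 at -0.71, and the list's median was -0.61, against -2.20 without knockout replicate 1. Neutrophil granule genes had a median of 0.15 over 17, 14 higher and 3 lower, with Lcn2 at 0.81 ± 0.24, Cd177 at 0.77 ± 0.18, Ngp at 0.49 ± 0.17 and Ctsc at -0.36 ± 0.17 (0 passed in limma; 3 higher at an unadjusted p under 0.05). Eosinophil markers (8 tested of 10, 6 lower and 2 higher) had a median of -0.15, with Siglecf at 0.78 ± 0.12 and Alox15 at -1.19 ± 0.27 (-0.52 with normexp). Their median was -1.09 without wild-type replicate 1 and 0.97 without wild-type replicate 2. B cell markers (7 of 10, 4 lower and 3 higher) had a median of -0.22, which was 0.18 without wild-type replicate 1 and 0.19 without knockout replicate 2, and Blnk was at -0.91 ± 0.32 (-0.47 without wild-type replicate 2). T and NK cell markers (6 of 12, 5 higher and 1 lower) had a median of 0.07 (-0.021 with normexp), with Thy1 at 1.03 ± 0.13. No gene of these 3 lists passed an adjusted p of 0.05 (limma), and at an unadjusted p under 0.05 there were 2, 1 and 1.

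**Figure D3:**
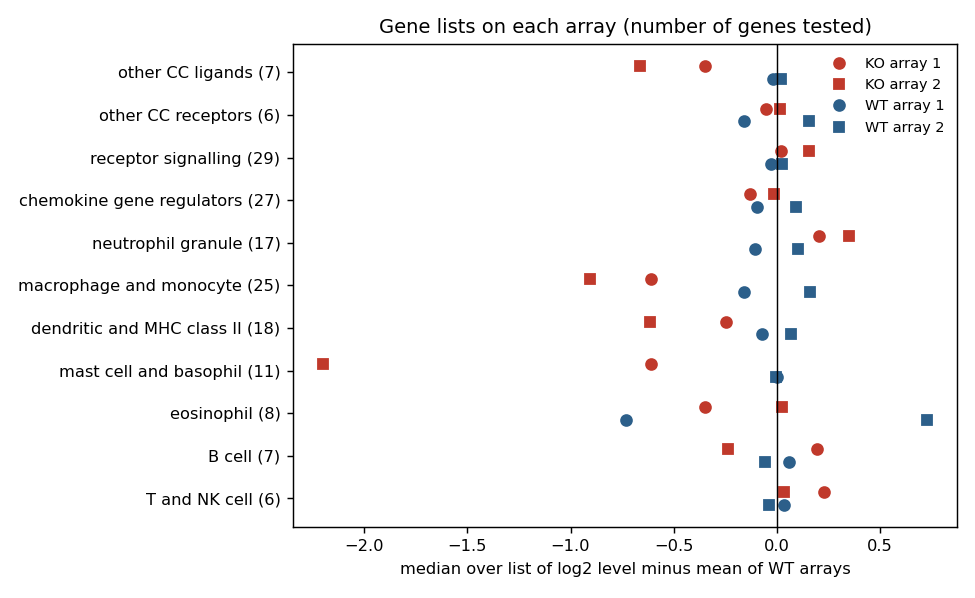
Median over each gene list of the log2 level minus the mean of the wild-type arrays (x axis), for knockout arrays (red) and wild-type arrays (blue); circles are replicate 1, squares replicate 2, and the number of genes tested follows each name. The macrophage, dendritic, mast cell and basophil, and other CC ligand lists have both knockout medians below both wild-type medians. The knockout medians are -0.61 and -0.91 for the macrophage list and -0.35 and -0.66 for the other CC ligands.

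The genes whose values over the 4 arrays ran closest to each CC gene were found by the mean absolute distance of centred log2 levels, over 4 arrays and 16779 genes. This is a description of 4 points per gene. For Ccr2 they were Il6st, a subunit of the interleukin-6 receptor (distance 0.020), and Tspan17 (0.029). For Ccl4 they were Csf1, the macrophage growth factor gene (0.025), and the scavenger receptor gene Msr1 (0.052). For Ccl2 they were H2bc23 (0.061) and Gm6377 (0.103). For Ccl3 they were Nfkbiz, a co-regulator of NF-kB (0.114), and Cdcp1 (0.114). Nfkbiz was at 0.08 and 1.45 in knockout cells, against 0.68 and 1.73 in wild-type cells, with replicate 2 above replicate 1 in each genotype as for Ccl3. Ccl9 had Sobp (0.020) and Fbxo32 (0.022) nearest, and Ccl6 had Rab20 (0.0080) and Relb (0.019). Ccl17 had Gpr37l1 (0.019) and Tspan33 (0.029), Ccl22 had Etnk1 (0.018) and Fhl3 (0.018), and Ccr1 had Nrgn (0.031) and Gm16381 (0.051).

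**Figure D4:**
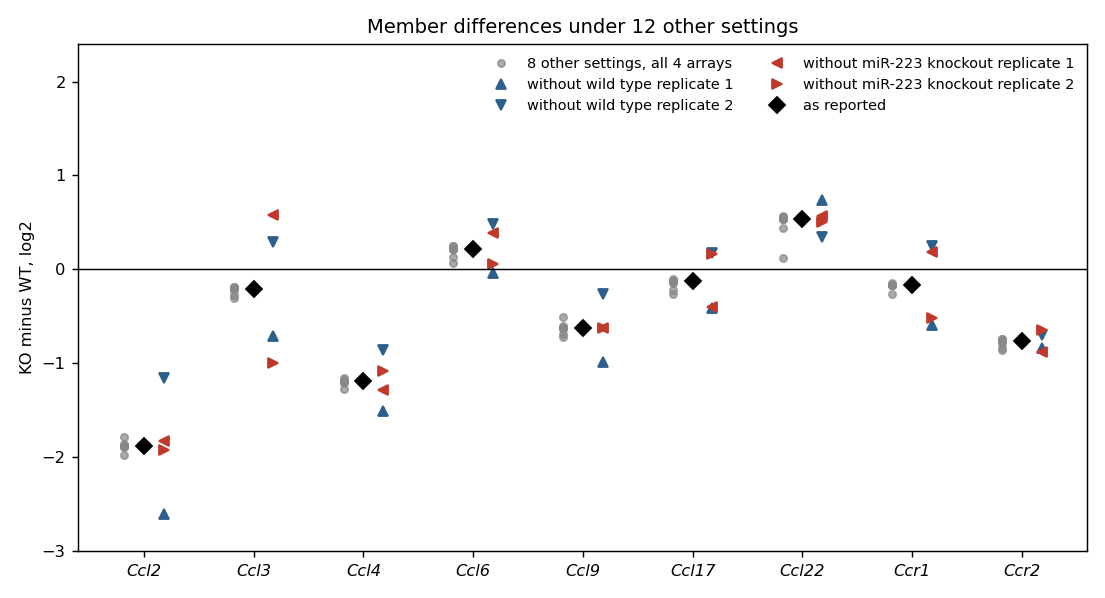
Knockout minus wild-type difference (y axis, log2) of each of the 9 genes as reported (black diamond), under 8 other settings with all 4 arrays (grey) and with 1 array left out (triangles). Ccl2, Ccl4, Ccl9 and Ccr2 stay below 0 and Ccl22 above 0 throughout, while Ccl3, Ccl6, Ccl17 and Ccr1 cross 0 when an array is left out.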

How the data were processed

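RNA of GM-CSF-cultured, sorted marrow cells was labelled with Cy3 and hybridised to 4 one-colour Agilent arrays of 1 slide, which carry 1 scan time. Per the file headers, the deposited intensity values came from Agilent Feature Extraction 10.5.1.1, which subtracts background, removes spatial trends and gives dim spots surrogate values. The authors' deposited log2 values were these intensities plus 1 constant per array, with a median of 5.026 on each array and 99.8% or more of 41150 probes within 0.01 of it. How they were made is not given in the sources used here. They served as an alternative, and other flags per spot, per the file headers, marked outliers and spots well above background.

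Control spots and outlier spots were left out, spots of a probe were averaged on the log2 scale, and each array's 75th percentile was subtracted. Probes with an array left without a spot were dropped, so that 41150 of 41174 remained. Names came from RefSeq accessions of GRCm38.p6 for 26873 probes by their main accession and 113 by another, and from the array files for 14164. A gene took its brightest probe, and it was tested if, in 1 or both genotypes, neither array had that probe down at background (16779 of 28497 genes). Genotypes were compared with limma 3.58.1 in R 4.3.3 by its moderated two-sided test (lmFit, eBayes). Benjamini-Hochberg adjustment ran over the whole set of tested genes, with a threshold of 0.05. The steps were tested on simulated data.

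The 9 genes and the 11 lists were chosen with earlier results of these data known. The naming rule took all 9 genes with every probe, all tested genes of the lists of other CC ligands and receptors, up to 4 genes of each other list with the smallest p (of eosinophil, B, and T and NK cell lists, those at an unadjusted p under 0.05), and for each of the 9 genes the 2 genes with the nearest pattern. Further genes of the regulator, macrophage, dendritic and mast cell and basophil lists were named after their values were seen. The alternatives were 12: background correction, scaling, source of values, filter, probe choice, replicate block and leaving out each array. The normexp background correction added an offset of 50 intensity units. For dim probes, smaller differences with normexp partly follow from this offset. The number of arrays limits the precision. One further gene of the CC receptor family is not reported here.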

Additional observations from a re-analysis of the deposited data

How the results depend on the processing

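Under 12 alternatives, limma gave none of the 9 genes an adjusted p below 0.05, and at an unadjusted p under 0.05 it gave 2 to 5 of them. Ccl2, Ccl4, Ccl9, Ccl22 and Ccr2 kept their direction under all 12. The signs that turned did so when 1 array was left out: Ccl3 (-0.998 to 0.58, and 0.29 without wild type replicate 2), Ccl6 (-0.037 to 0.48), Ccl17 (-0.42 to 0.17, and 0.16 without miR-223 knockout replicate 2) and Ccr1 (-0.59 to 0.25, and 0.18 without miR-223 knockout replicate 1). Lower means were found in 4 of the 9 genes without wild type replicate 2 and in 8 without wild type replicate 1. Leaving out wild type replicate 2 gave -1.16 for Ccl2, -0.27 for Ccl9 and 0.34 for Ccl22. Other signs that turned were those of Ccr3 (normexp -0.14, spike-in scaling -0.071, mean of all probes -0.18, and -0.032 to 0.079 with 1 array left out, -0.0042 without miR-223 knockout replicate 2), Ccr6 (normexp -0.023), Ccr10 (-0.65 to 0.26 with 1 array left out) and Ccrl2 (-1.35 to 0.18), the last 2 positive without wild type replicate 2. Over all genes, limma called 0 genes as reported, 5 with normexp background correction and 4 with spike-in scaling; the cause was not tested. Genes at an unadjusted p under 0.05 numbered 1407 without miR-223 knockout replicate 1 and 1068 without miR-223 knockout replicate 2, against 2267 as reported. Higher means made up 54.5% of genes as reported and 40.4% with spike-in scaling. With the replicate number as a block, 0 genes passed (limma; 2506 at an unadjusted p under 0.05), and Ccl2 stayed at -1.88 (adjusted p 0.243), Ccl4 at -1.19 (0.247) and Ccr2 at -0.77 (0.243). The deviations of same-numbered arrays correlated at 0.174 over 16779 genes, and the labels do not tie the numbers to a litter or day. The dim probe of Ccl22 gave 0.12 with normexp background correction, whose offset of 50 units shrinks the differences of dim probes.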
